A study of Mus musculus with 74 samples.

Results

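The windows described here carried H3K9me3 in cumulus cells (CC), kept it through the first cell cycles of somatic cell nuclear transfer (SCNT) embryos, carried it in both lineages of the cloned blastocyst, and had no called peak in the fertilized zygote. They were selected on the deposited peak lists themselves. The mm10 autosomes were divided into 1-kb windows from position 0, a window was called marked where at least 500 bp of it lay under merged peaks, and a member had to be marked in the CC, 6 hpa, 14 hpa, 2-cell, ICM and TE lists with 0 bp under peaks of the PN5 list (hpa, hours post activation; ICM, inner cell mass; TE, trophectoderm; PN5, the last pronuclear stage of the fertilized zygote). 5228 of 2462755 autosomal windows met the rule. 2395928 of these windows had at least 500 assembled bases and served as the background, and every member was among them. Marks in those 7 lists are therefore a description of the choice, and the 4-cell, 8-cell and morula lists, the DNA sequence and the position of genes were not used by it.

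H3K9me3 was profiled by ultra-low-input native ChIP-seq in 41 precipitates, with 33 inputs, in 10 groups. CC came from B6D2F1 young adult females and were also the nuclear donors; they were injected into enucleated B6D2F1 oocytes, and the constructs were activated with strontium in calcium-free medium with cytochalasin B. Cloned embryos were taken at 6 hpa and 14 hpa, as 2-cell, 4-cell and 8-cell embryos, as morulae, and as blastocysts whose ICM and TE were separated by micromanipulation. PN5 zygotes were the only fertilized group, came from C57BL/6 parents of both sexes, and carried no transferred nucleus; the effects of strain, fertilization and the separate experiment that the PN5 data came from cannot be told apart. The labels name no deletion or transgene in any group. Embryos and cells were pooled for each library. Each list was called once on the pooled replicates of its group, so no value below has a replicate error, no test between groups was possible, and intervals are 95% Wilson intervals that cover counting error over windows only. Neighbouring windows and copies of one repeat are not independent.

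H3K9me3 is written by SUV39H and SETDB1 enzymes and read by HP1 proteins, and it is a mark of heterochromatin. In early embryos it lies mostly over transposable elements, satellite repeats and gene clusters such as those of the KRAB zinc finger proteins, and in cloned embryos inherited H3K9me3 is known as a barrier to the activation of the embryonic genome. At imprinted loci the mark lies on the DNA-methylated allele.

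Many members held DNA found in other members. 4701 members (89.9%) held a 24-base word that also occurred in another member, and 3766 (72.0%) held a word found in at least 10 members. These shares were not computed for other windows, and nothing particular to members is read from them. The 6 words shown next were picked one after the other so that each covered the most members not yet covered, after leaving out words of low complexity; they are shown because the marks of members differed with the word they held, and each was found in members on all 19 autosomes.

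Word 1: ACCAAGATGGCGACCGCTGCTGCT
Word 2: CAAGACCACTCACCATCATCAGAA
Word 3: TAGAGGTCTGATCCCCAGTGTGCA
Word 4: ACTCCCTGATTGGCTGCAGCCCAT
Word 5: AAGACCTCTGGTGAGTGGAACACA
Word 6: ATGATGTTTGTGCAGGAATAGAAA

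Word 1 was held by 461 members, word 2 by 314, word 5 by 238, word 3 by 202, word 4 by 143 and word 6 by 125. Together the 6 words covered 1368 members (26.2%), against 3321 (19.6%) of the windows that were marked in the same 6 lists and in PN5. The words were chosen on the members, so the second share is lower by construction. Words 2 and 5 often lay in one window: of the 238 members with word 5, 129 held none of the words before it.

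The surroundings of word 1 are shown for the member in which the least enriched of the 6 marked lists was highest, at chr14:124654358-124654501 on the minus strand (mm10, GRCm38.p6), within the gene Fgf14, a fibroblast growth factor homologue that acts inside neurons. Capitals mark the word.

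Word 1 in Fgf14: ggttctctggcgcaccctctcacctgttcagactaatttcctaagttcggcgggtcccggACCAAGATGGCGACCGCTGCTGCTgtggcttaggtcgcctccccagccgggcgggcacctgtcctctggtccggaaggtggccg

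That window, chr14:124654001-124655000, had 778 bp under peaks in both CC and the 14 hpa embryos, 771 bp at 2-cell, 736 bp in ICM, and 729 bp in TE as well as at 6 hpa. It had 0 bp at 4-cell, 497 bp at 8-cell, just under the limit, and 393 bp in morula. Fold enrichment over input, as the peak caller gave it, was between 3.75 in TE and 5.03 at 6 hpa. The window thus had its mark in every list the rule read and was below the limit in the 3 it did not read.

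Most members were marked through the stages the rule skipped. At the 4-cell stage 4170 members (79.8%, 78.7 to 80.8) were marked, against 5.95% of all assembled windows. At the 8-cell stage 3745 members (71.6%, 70.4 to 72.8) were marked, against 6.11% of all windows, and in morula 4546 (87.0%, 86.0 to 87.8) against 7%. In all 3 lists 3141 members (60.1%, 58.8 to 61.4) were marked, against 2.58% of windows. 260 members (4.97%) were marked in none of them, while 88.9% of all windows were marked in none. The next most frequent pattern was a mark at 4-cell and morula with none at 8-cell, in 669 members (12.8%), followed by 394 (7.54%) that lacked it only at 4-cell.

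The absence of PN5 peaks went with less complete marking. Among 16933 windows marked in the same 6 lists and also in PN5, 93.8% were marked at 4-cell, 88.7% at 8-cell and 95.5% in morula. The 4320 windows with less than 500 bp, but not 0 bp, in PN5 lay between, at 85.4%, 76.6% and 90.5%. The order was the same in every list, and members were below the PN5-marked windows on 19 of 19 autosomes at each of the 3 stages. The autosomes share the same pooled lists and are not replicates. PN5-marked windows were also covered more fully in lists that the rule read. At 2-cell 78.9% of them were fully covered, against 49.3% of members. The part of this in the lower shares of members was not tested. Over autosomes the share of members marked at 8-cell was 71.9% ± 3.83 (SD, n = 19 autosomes of 1 pooled list), against 88.9% ± 1.65 for the PN5-marked windows. A further set of 1547 windows were marked in CC, ICM and TE with 0 bp at 6 hpa, 14 hpa, 2-cell and PN5 (lost and regained), and of these 11.96% were marked at 4-cell, 15.6% at 8-cell and 54.6% in morula. Members were much closer to the PN5-marked windows than to these lost and regained ones. The lost and regained windows had to lack peaks at 6 hpa, 14 hpa and 2-cell, where both other sets had to be marked. This difference is therefore partly fixed by the choice of the sets.

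**Figure D1:**
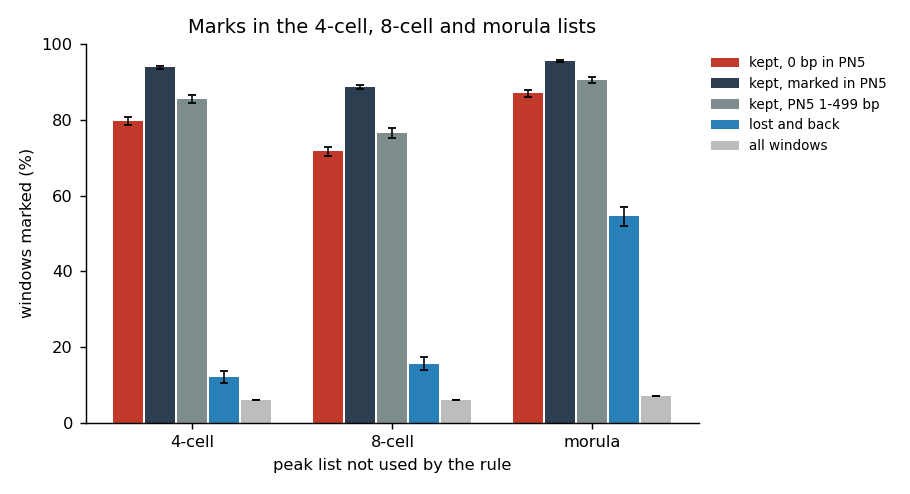
Bars give the percentage of windows with at least 500 bp under peaks in the 4-cell, 8-cell and morula lists (x axis) for members (kept, 0 bp in PN5), for windows marked in the same 6 lists with PN5 marked or partly covered, for windows lost and regained, and for all assembled autosomal windows; error bars are 95% Wilson intervals. Members stand at 79.8%, 71.6% and 87.0%, below the PN5-marked windows in each list and far above the 5.95%, 6.11% and 7% of all windows.

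The 8-cell stage was where members differed most by sequence. Of the 461 members with word 1, 58 (12.6%, 9.86 to 15.9) were marked at 8-cell, 243 (52.7%) at 4-cell and 235 (51.0%) in morula. The 4767 members without it were marked in 77.3% (76.1 to 78.5), 82.4% and 90.4% of cases. Members with word 1 made up 403 of the 1483 members unmarked at 8-cell (27.2%, 24.97 to 29.5). At 8-cell 94.1% of members with word 3 were marked, 89.6% of those with word 6, 86.7% with word 4 and 81.5% with word 5. Members with word 2 stood at 73.6% (68.4 to 78.1), near the 71.5% of members without it.

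Word 1 windows had the same 8-cell gap where PN5 was marked. Of 369 PN5-marked windows with word 1, 13.6% (10.4 to 17.4) were marked at 8-cell, against 90.4% of the 16564 without it. Over all 3225 autosomal windows that held word 1, 81.1% were marked at 14 hpa, 62.8% at 2-cell, 38.4% at 4-cell, 11.0% at 8-cell, 30.0% in morula and 70.5% in ICM. The level thus went down to the 8-cell list and up again to ICM. Word 1 windows were rich in G and C, with a median of 57.3% in members. Within windows of 50% GC or more, 10.7% of 401 members with the word and 86.1% of 1115 members without it were marked at 8-cell.

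**Figure D2:**
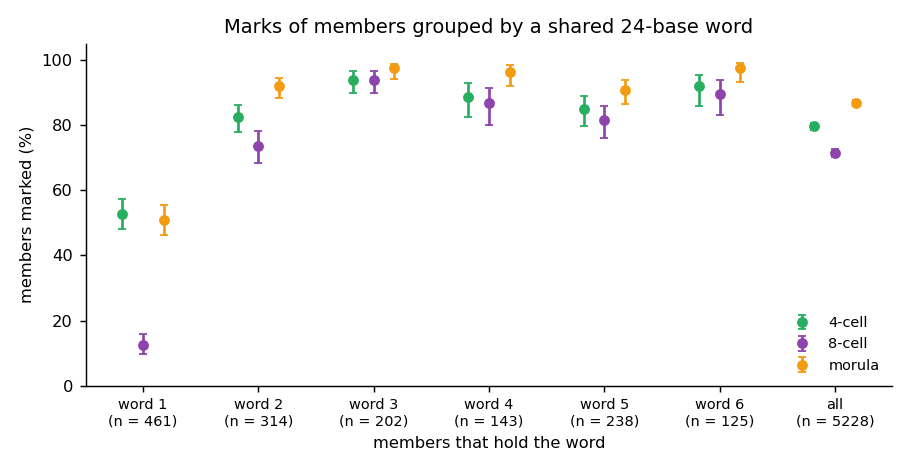
Points give the percentage of members marked at 4-cell, 8-cell and morula (y axis) among members that hold each of the 6 words and among all members (x axis, with the number of members); bars are 95% Wilson intervals. Word 1 members stand at 12.6% at 8-cell, 52.7% at 4-cell and 51.0% in morula, while members with words 2 to 6 stand at 73.6% or more in every list.

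The words differed in how often PN5 marked them. PN5 peaks marked 50.9% of 5475 windows with word 4, 34.4% of 838 with word 3, 29.0% of 4044 with word 5, 23.6% of those with word 1, 20.9% of 8177 with word 2 and 4.95% of 8490 with word 6, beside 4.82% of all windows. Members were 24.1% of the windows that held word 3, 14.3% of those with word 1 and 1.47% of those with word 6. Few of the many windows with word 6 were marked in any list, at most 20.2% (in morula). Of the fewer windows with word 3, 82.1% or more were marked in each list but PN5. Only exact matches were counted, so copies of a repeat that differ within the word are left out.

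Most of the 10 longest runs of members, though not the longest, held near copies of a single element. Members formed 4489 stretches: 3890 were 1 window long, 489 had 2 windows, 86 had 3, 19 had 4, 4 had 5 and 1 had 6. 1338 members (25.6%) lay in a stretch of at least 2. Of the 10 longest stretches, ordered by length and then by the enrichment of their weakest list, 6 shared between 66.6% and 96.98% of their 24-base words with the second of them, which makes a family of 7, and the other 3 shared none. A segment of 120 bases is shown for 4 of these 7, each in the orientation of the first, with capitals where a line differs from the first line. It was the segment, of those found in all 7 without a gap, that differed most, and the differences were between 1 and 3 bases.

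chr4:51876041-51876160, plus strand: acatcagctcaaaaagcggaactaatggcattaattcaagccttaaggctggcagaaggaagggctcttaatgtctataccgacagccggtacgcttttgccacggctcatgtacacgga
chr2:20384822-20384941, minus strand: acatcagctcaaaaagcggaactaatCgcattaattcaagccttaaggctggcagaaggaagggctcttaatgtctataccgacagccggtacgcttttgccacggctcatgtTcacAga
chr12:43957167-43957286, minus strand: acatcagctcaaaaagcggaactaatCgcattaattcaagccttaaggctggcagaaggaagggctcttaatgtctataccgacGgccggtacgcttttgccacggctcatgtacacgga
chr10:86680763-86680882, plus strand: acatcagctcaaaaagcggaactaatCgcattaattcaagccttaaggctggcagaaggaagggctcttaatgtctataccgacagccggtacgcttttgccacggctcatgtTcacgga

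Windows that held at least 500 of the words of the chr4 stretch numbered 198 on the autosomes, and 100 of them were members, on 18 autosomes. The share marked was lowest at 6 hpa (83.3%) and 8-cell (89.9%). It was 96.5% in CC, 96.0% at both 14 hpa and ICM, 95.5% at both 2-cell and TE, 93.9% at 4-cell and 94.4% for morula. In PN5 12.6% were marked and 134 of the 198 had 0 bp under peaks. Of the 157 marked in all 6 lists, 63.7% were members. The element was taken from the longest runs of members, and these runs are among the windows counted, so this share and the low PN5 share are partly fixed by the choice. The limit of 500 words was set after the data were seen; at 250 words members were 58.4% and at 750 words 74.3% of the windows marked in the 6 lists.

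The 7 stretches lay at chr4:51874001-51879000, at chr4:53939001-53944000, at chr10:26928001-26933000, within an intron of Etl4 at chr2:20381001-20385000, over the long noncoding gene Gm46349 at chr12:43955001-43959000, at chr10:86679001-86683000 and at chr1:83982001-83986000. Their repeat-masked share was between 79.6% and 90.4%. Each had its nearest PN5 peak at 273 to 930 bp. Coverage in the 9 other lists was between 71.2% and 100%. How reads were placed among such near copies was not examined, so values of single copies, here and above, may not be independent.

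The 3 stretches outside this family differed from one another. The longest, chr17:19322001-19328000, overlapped the unprocessed pseudogene Gm49752 and lay 33948 bp from Vmn2r99, a pheromone receptor gene; 63.3% of it was covered at 4-cell and 72.0% at 8-cell. The stretches in introns of Cdh4 (chr2:179469001-179474000), which encodes R-cadherin, a cell adhesion protein, and of Sdk1 (chr5:142061001-142065000), which encodes a synaptic adhesion protein of the immunoglobulin superfamily, were mostly unique sequence, with 16.5% and 17.8% repeat-masked. The Cdh4 stretch was fully covered from CC to the 4-cell stage, 72.6% covered at 8-cell, 76.3% in morula, 94.9% in ICM and 86.2% in TE.

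**Figure D3:**
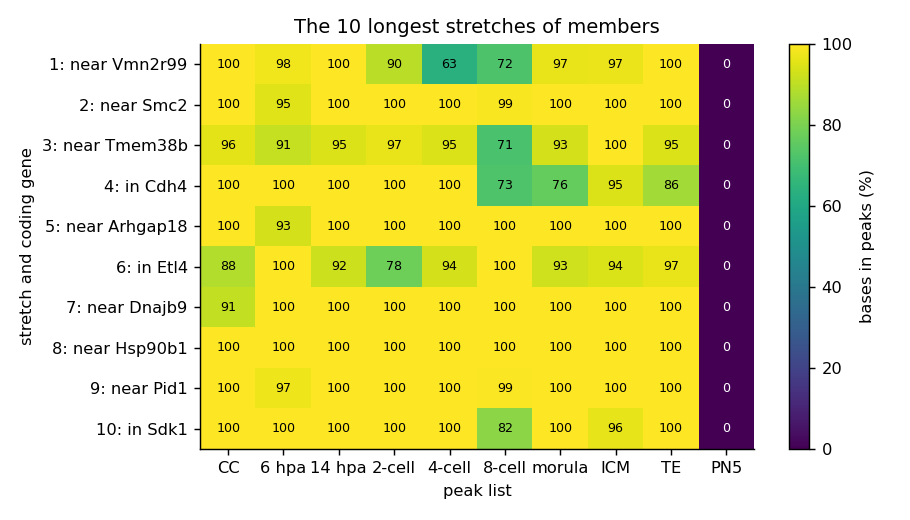
Each row is one of the 10 longest stretches of adjacent members, named by the coding gene it lies in or near, each column a peak list, and colour and number give the percentage of its bases under peaks. All rows are at 0 in PN5, as the rule requires, and the lowest values elsewhere are 63.3% at 4-cell and 71.2% at 8-cell.

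Members were rich in G and C and in repeats, though less in repeats than the PN5-marked windows. The median GC of members was 47.6% (quartiles 45.3 and 50.5), against 48.0% in PN5-marked windows, 40.2% in lost and regained windows and 41.7% over all windows. The mean repeat-masked share was 65.5%, against 80.2%, 58.7% and 33.5%. The ratio of observed to expected CpG had a median of 0.28 in members, 0.396 in PN5-marked windows, 0.157 in lost and regained windows and 0.162 over all windows.

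PN5 peaks were absent most often in the least masked windows and least often in the most masked ones. Of the windows marked in the 6 lists, 34.4% (32.6 to 36.2) of those with under 25% of bases masked had 0 bp in PN5. With 90% or more masked it was 12.7% (12.2 to 13.3). Between these classes the share was nearly flat. It was 26.5% at 25 to 50% masked and 25.7% both at 50 to 75% and at 75 to 90%. By GC the share was 20.0% both at 40 to 45% and at 45 to 50%, 18.6% at 50% or more and 33.4% in the 365 windows under 40%. The gap to the PN5-marked windows at 8-cell was present in every GC class, with members at 54.1%, 63.9%, 78.9% and 66.2% in rising order of GC and PN5-marked windows at 61.8%, 85.2%, 91.3% and 87.8%. The lowest class held only 122 members and 165 PN5-marked windows. At 50% GC or more, without the windows that held word 1, the values were 86.1% and 92.9%. In members under 25% masked, which held no copy of word 1, 74.9% were marked at 8-cell, against 86.8% of such PN5-marked windows.

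Motifs were searched as letters on both strands. CCATNTT, the core bound by the zinc finger factor YY1, was in 58.0% of members (56.7 to 59.4), in 63.9% of PN5-marked windows and in 58.6% of all windows, so the share in members was near the background. Word 1 holds 1 match of this core, and members without word 1 had it in 54.0%. Among windows of 50% GC or more, 55.6% of members, 39.6% of members without word 1 and 45.7% of all windows had it. TGCCGC, bound by ZFP57, which keeps imprints, was in 18.4% of members, 32.6% of PN5-marked windows and 5.89% of all windows. The gap to all windows was smaller at like GC, with 19.4% of members and 9.54% of all windows at 45 to 50% GC, and 23.1% and 18.7% at 50% or more. The telomere repeat unit TTAGGG was in 31.9% of members and 32.5% of all windows. A match is only a run of letters.

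Peaks over members were weaker than over PN5-marked windows. In members the median fold enrichment over input was 3.13 in CC and then 3.11, 3.18 and 3.40 in the 6 hpa, 14 hpa and 2-cell embryos. In PN5-marked windows these values were 3.34, 3.21, 3.69 and 4.01. In the blastocyst the medians were 3.64 in ICM and 3.53 in TE for members, against 4.62 and 4.22. The difference was smallest at 6 hpa and largest in ICM, in lists that the rule read. Beside all windows marked in the same list, members were higher in CC, at 6 hpa and at 14 hpa, where the medians over all marked windows were 2.94, 2.91 and 2.98. They were close to it at 2-cell, where it was 3.39, and in ICM and TE, where it was 3.51 in both. PN5 peaks had the lowest median −log10 q over marked windows of the 10 lists, at 2.21, so a weak mark in PN5 could go uncalled, and its part in the rule was not tested.

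Peaks reached beyond the members, farther in CC than in the blastocyst. In the windows just beside a member, the mean share of bases under peaks was 67.8% and 68.7% in CC and 61.9% and 61.1% in ICM, and at 5 kb it was 43.4% and 43.6% in CC and 22.9% and 22.6% in ICM. CC coverage at 15 kb was still 33.8% and 34.5%, against 8.86% over the genome. PN5 coverage at 15 kb was 7.54% and 7.17%, against 5.39% over the genome. Members thus lay in regions of high CC coverage that the blastocyst lists covered less. Around the PN5-marked windows CC coverage was lower at 15 kb, 23.7% and 23.8%, but higher close by. It was 77.7% and 77.5% just beside them, and 61.3% and 61.1% at 2 kb, against 53.1% at 2 kb on either side of members. The median CC peak was also wider over PN5-marked windows, 5452 bp against 3740 bp over members.

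PN5 peaks were often near. The median distance from a member to the closest PN5 peak was 3474 bp, 18.3% of members had one within 500 bp, 28.9% within 1 kb and 71.5% within 10 kb. Over all windows with 0 bp in PN5, 4.69% had one within 500 bp and 50.7% within 10 kb. CC-marked windows with 0 bp in PN5 lay between, with a median of 5268 bp, 9.70% within 500 bp and 66.0% within 10 kb. At the limits of the rule, 377 windows with 1 to 100 bp in PN5 were marked in 81.2%, 72.2% and 90.7% of cases at 4-cell, 8-cell and morula. The 1604 members whose least covered list lay less than 100 bp above the limit stood at 71.6%, 66.0% and 82.4%, and 2320 windows that missed the rule by at most 100 bp in that list stood at 63.3%, 57.2% and 76.7%. The 929 members fully covered in all 6 lists stood at 89.7%, 83.4% and 93.9%.

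**Figure D4:**
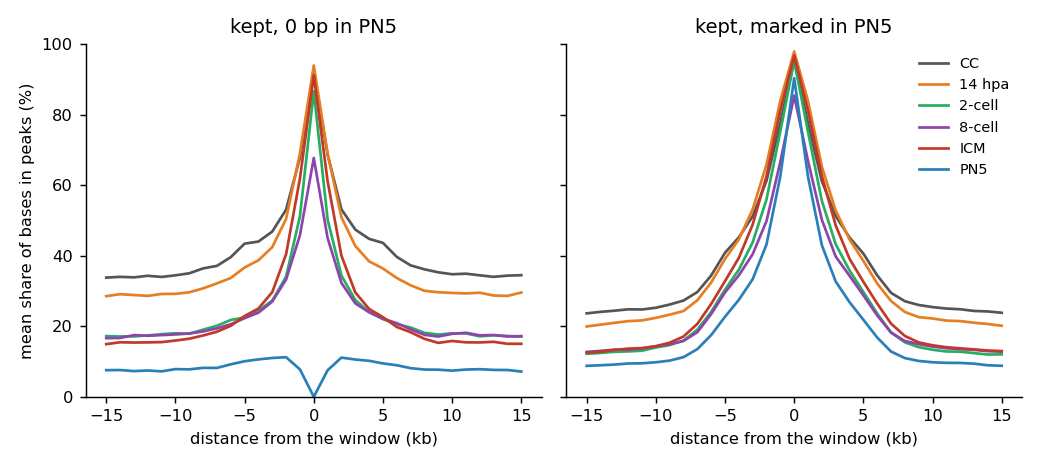
Lines give the mean percentage of bases under peaks (y axis) in 1-kb windows at each distance in kb (x axis) from members (left) and from windows marked in the same 6 lists and in PN5 (right), for 6 peak lists. At 15 kb before members CC is at 33.8%, 8-cell at 16.6% and ICM at 14.9%, and PN5, at 0 by the rule, reaches 11.2% at 2 kb.

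Members lay mostly outside genes. 3595 members (68.8%, 67.5 to 70.0) overlapped no annotated gene, against 50.2% of all windows, 72.8% of PN5-marked windows and 52.0% of lost and regained windows. 977 (18.7%) lay in a protein-coding gene, against 42.0% of all windows, and 40 (0.765%) lay within 1 kb of the start of one, against 2.43%. 593 of 20807 autosomal protein-coding genes (2.85%) had a member in the body and 36 (0.173%) had one at the promoter.

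Several hand lists of genes held no member; over all coding genes there were 1.19 members per 1000 windows of gene body, and these lists are short. None of 27 granulosa and cumulus genes, 30 early 2-cell genes, 20 inner cell mass and pluripotency genes, 26 H3K9 and DNA methylation factors or 26 genes that the study discusses had a member in the body or at the promoter. These lists cover between 166 and 1616 windows of gene body each. Of 17 trophectoderm genes 1 (5.88%) had a member, against 2.85% of all coding genes, or 1.75 members per 1000 windows of gene body against 1.19. It was Fgfr2, a receptor for fibroblast growth factors, with 6 members in an annotated body of 2962 windows that runs far beyond the usual gene. They lay between chr7:131123001 and chr7:132136000 and touched no exon. 5 of these 6 were marked at 4-cell, 6 at 8-cell and 5 in morula. None of 67 histone, 72 ribosomal protein or 39 homeobox cluster genes had one, in 182, 404 and 379 windows of gene body, and 1 of 42 collagen genes did, Col26a1.

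Imprinted genes had more: 7 of 38 (18.4%), with 7 distinct windows, against 2.85% of all coding genes. Counted per gene, so that a window shared by a pair of genes counts for each, there were 9 members, or 3.64 per 1000 windows of gene body, against 1.19 over coding genes; the list was drawn up with earlier results of these data known. A window at chr6:4747001-4748000, which holds the starts of both Peg10, a retrotransposon-derived gene needed in the placenta, and Sgce, which encodes a sarcoglycan, was fully covered in all 9 lists other than PN5. The nearest PN5 peak was 6953 bp away. A window of Airn at chr17:12820001-12821000, the noncoding RNA that silences Igf2r, was also fully covered in those 9 lists, with a PN5 peak 480 bp away, and the next window had 501 bp at 4-cell and 446 bp at 8-cell. At Peg13, a noncoding RNA gene within Trappc9, chr15:72810001-72811000 had at least 921 bp in each list but PN5, while chr15:72809001-72810000 had 0 bp at 4-cell and 159 bp at 8-cell and 1000 bp in morula. The remaining windows lay in Sfmbt2, a Polycomb-related gene, with 656 to 831 bp in the 9 lists, and in Kcnq1 and Kcnq1ot1, which share a window at chr7:143225001-143226000 with 551 bp at 2-cell and 708 bp at 4-cell. These windows were mostly repeat, 92.6% masked in Sfmbt2 and 92.5% in Kcnq1 and Kcnq1ot1. The second Airn window was 68.5% masked. The other windows named here were 10% masked or less.

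Germline genes held few members. Of 22 germline genes 2 (9.09%) had a member, against 2.85% of all coding genes. Per 1000 windows of gene body this was 2.25 against 1.19, and it rests on 2 windows. Sycp2, a component of the synaptonemal complex of meiosis, and Piwil1, a partner of piRNAs, had 1 member each. The Piwil1 window touched no exon and lay 483 bp from a PN5 peak. The Sycp2 window, chr2:178407001-178408000, covers its annotated start. It had 1000 bp under peaks at 6 hpa, 14 hpa and 2-cell, 543 bp in CC, 930 bp in ICM and 924 bp in TE. It had 0 bp at 4-cell and 8-cell and 169 bp in morula. D1Pas1, a testis-expressed RNA helicase gene that was not in this list, had 2 members at its promoter. Of these, chr1:186967001-186968000 had 809 bp at 4-cell, 111 bp at 8-cell and 896 bp in morula, with 1000 bp in ICM and TE. The promoters of Sycp2 and D1Pas1 are shown for the 250 bases before the RefSeq start (GRCm38.p6), with CG in capitals. They are shown as promoters of a listed germline gene and a testis-expressed gene with members, which are marked in the blastocyst by the rule.

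Sycp2, chr2:178407659-178407908, minus strand: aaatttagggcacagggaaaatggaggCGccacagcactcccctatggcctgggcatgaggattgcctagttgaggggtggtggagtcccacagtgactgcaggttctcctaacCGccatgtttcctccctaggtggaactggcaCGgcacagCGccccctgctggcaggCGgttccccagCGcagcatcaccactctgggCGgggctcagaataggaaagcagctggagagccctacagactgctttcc
D1Pas1, chr1:186967166-186967415, plus strand: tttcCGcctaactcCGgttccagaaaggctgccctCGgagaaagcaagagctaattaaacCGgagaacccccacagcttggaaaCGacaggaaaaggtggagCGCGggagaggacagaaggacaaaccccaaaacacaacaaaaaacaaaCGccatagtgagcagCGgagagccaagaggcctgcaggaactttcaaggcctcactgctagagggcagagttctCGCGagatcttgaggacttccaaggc

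The Sycp2 promoter holds 7 CG and 2 matches of CCATNTT, and the D1Pas1 promoter 11 CG and 0 matches. Over 31396 promoters of the table of this length the median number of CG was 6 and 12.3% held CCATNTT. 12 of the 17 named genes with a member at the promoter were matched in the promoter table.

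Other promoters with 2 members were those of Scgb1b30, an androgen-binding protein of the secretoglobin family, Gm15319, Cyp2d9, a cytochrome P450, and Efcab6. Scgb1b30 on chromosome 7 was the gene with the highest share of members among coding genes of at least 5 windows, 3 of 6. Both of its promoter members were covered over at least 948 bp in each list but PN5 and 6 hpa. At 6 hpa the lower value was 677 bp. Gm15319 was covered over 1000 bp in both of its promoter members from CC to morula, with fold enrichment between 1.71 and 2.13. The promoter window of Hmx1, a homeobox gene, had 546 bp at 14 hpa and 1000 bp at each later stage. Gm5591 had 4 members in 11 windows, Gm4767 had 3 in 15 and 4933427I04Rik, BC061212, Gm428, Gm7971, Kprp, Olfr412 and Vmn1r167 had 1 in 5 each. Gm10272, Gm2310, Gm3409 and 4930449I24Rik had 1 promoter window each with full coverage at 4-cell, 8-cell and morula.

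Among gene families, 39 of 385 Zfp zinc finger genes (10.1%) had a member, against 2.85% of all coding genes, with Zfp981, Zfp991 and Zfp600 on chromosome 4 leading at 6, 5 and 4 windows. Per 1000 windows of gene body the Zfp genes had 5.05 members, vomeronasal receptor genes 3.78, potassium channel genes 1.72 and olfactory receptor genes 1.14, against 1.19 over coding genes. All 6 members in Zfp981 were marked in morula and 2 of them at 4-cell. Of 327 vomeronasal receptor genes 21 (6.42%) had a member and of 1128 olfactory receptor genes 9 (0.798%). In 10 of 91 potassium channel genes (11.0%) there were 18 members in all, led by Kcnip1, a channel-interacting protein gene, with 5, all marked at each of the 3 stages.

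Among cadherin genes, Cdh4 and Cdh13 held most of the members. Cdh4 had 26 members, the most of any coding gene, in 458 windows, and 24 of them were marked at 4-cell, 21 at 8-cell and 23 in morula. Over the whole gene body, peaks covered 51.8% in CC, 55.0% at 2-cell, 57% at 4-cell and 53.2% at 8-cell, then 43.6% in morula. The blastocyst values were 18.4% for ICM and 20.2% for TE, and PN5 stood at 10.2%. The body was thus covered far less in the blastocyst than before, and members were 5.68% of its windows. Cdh13, a cadherin without a transmembrane domain, had 18 members in 1042 windows, with 47.0% of the body covered in CC, 14.5% in ICM and 7.36% in PN5. Together 6 of 23 genes of the cadherin list (26.1%) had 50 members, against 2.85% of all coding genes with a member. Per 1000 windows of gene body this was 8.1, against 1.19 over coding genes. In the clustered protocadherins, 27 of 55 genes (49.1%) had a member. These genes are nested and share their last exons, so a window can count for many genes, and the distinct windows numbered 17. In the gamma cluster 14 windows were counted in each of Pcdhga1 to Pcdhga4, Pcdhgb1 and Pcdhgb2, of which 7 were marked at 4-cell, 6 at 8-cell and 6 in morula; Gm37388, Gm37013 and Gm42416 span the cluster with 20 each.

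Members were unevenly spread. Each autosome had 2.15 ± 0.755 members per 1000 assembled windows (mean and SD, n = 19), from 1.503 on chromosome 6 to 4.35 on chromosome 7, followed by chromosome 5 at 3.29 and chromosome 4 at 3.15. Windows marked in the 6 lists, whatever their PN5 coverage, were also unevenly spread. They were 2566 of 141859 windows on chromosome 7 and 1397 of 146337 on chromosome 6. Members made up 15.6% to 24.05% of them over the autosomes. 79 of 2413 1-Mb bins had at least 10 members and held 25.9% of them. The densest bin was chr4:153000001-154000000 with 53 members, 98.1% outside genes, followed by the Cdh4 bin chr2:179000001-180000000 with 45; both had little repeat, 23.5% and 21.1% masked. Next came chr4:147000001-148000000 with 44 and chr4:146000001-147000000 with 40, which hold Rex2 and Zfp genes. Then came chr7:15000001-16000000 with 35, which holds the homeobox genes Obox1 and Obox3. In the order named, these bins held 87, 69, 134, 107 and 84 windows marked in the 6 lists. None of the 10 densest bins had a member with word 1. In chr8:20000001-21000000, 100% of 31 members were marked at 4-cell, and in chr13:66000001-67000000, 59.4% of 32. Within 5 Mb of the distal chromosome end lay 5.89% of members (5.29 to 6.56), against 4.42% of PN5-marked windows and 3.86% of all windows. The densest bin and the Cdh4 bin lay in this zone, 2.51 and 2.11 Mb from the chromosome end. They held 53 and 45 of its 308 members, and the share without them was not computed.

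**Figure D5:**
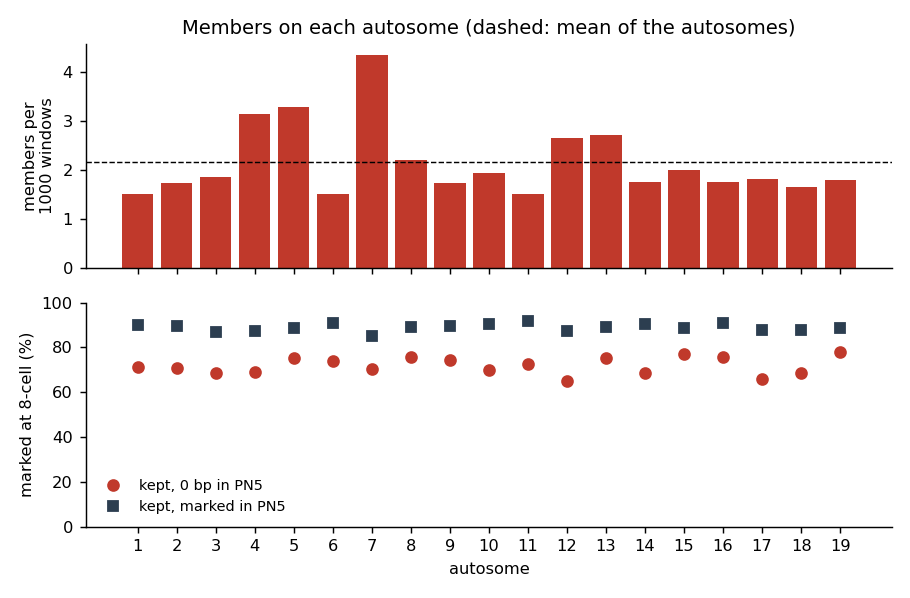
The upper bars give members per 1000 assembled 1-kb windows on each autosome (x axis), with the mean of the autosomes dashed; the lower points give the percentage marked at 8-cell among members and among windows marked in the same 6 lists and in PN5. Chromosome 7 has the most members, 4.35 per 1000, and the members' 8-cell share is below that of the PN5-marked windows on every autosome.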

How the data were processed

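Libraries were made from native chromatin cut with MNase and precipitated with an H3K9me3 antibody. Per the submitters' processing notes, the authors trimmed reads with cutadapt 1.16, aligned them to mm10 with BWA, used SAMtools, Picard and deepTools, and called broad peaks with MACS2; replicates of a group were pooled and drawn to equal depth first. The deposited lists give each peak's fold enrichment, a ratio over input, and the authors' −log10 q. Read depth was not analysed here.

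Peaks were merged per list and their covered length was computed in 1-kb windows with Python 3, numpy and pandas; genes came from GENCODE M21 and bases and repeat masking from GRCm38.p6, the same build. Repeat families were not named, since no repeat annotation was used here. Strength was taken from the peak with the longest overlap. Words had to hold at least 12 different 3-base words. Code was tested on simulated data. The members and gene lists were chosen with earlier results of these data known, and the words, the 500-word limit and the sequences shown after the data were seen. Named genes were those of the 10 longest stretches, the 10 coding genes with most members, the 10 with the highest share among genes of at least 5 windows, up to 10 by promoter members, and up to 5 per list. The 8 alternatives changed the grid, the covered length, the peak limit, the list length, the PN5 limit and the chromosomes.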

Additional observations from a re-analysis of the deposited data

Results flagged for a closer look

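The rule was limited to autosomes. Applied to the sex chromosomes, which no comparison above used, it was met by 1410 windows of chromosome X, 8.62 per 1000 assembled windows against 2.18 on the autosomes. Of the X windows marked in the 6 lists 37.6% had 0 bp in PN5, against 19.7% on the autosomes, and of the 1410, 74.6% were marked at 4-cell, 70.0% at 8-cell and 90.1% in morula. Chromosome Y had 9 such windows, of 118 marked in the 6 lists. The cloned embryos carried nuclei of cumulus cells, which come from females and have no chromosome Y. These calls are therefore not read as marks of chromosome Y, and how reads came to be placed there was not tested. The labels do not give the sex of the PN5 zygotes, so sex and the absence of PN5 peaks on chromosome X cannot be told apart.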

How the results depend on the processing

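No paired analysis was possible because each peak list came from a pool of its group's libraries, so leaving out single replicates could not be tried. Of 88 values (11 results under 8 alternatives), 43 stayed within 1.5 times the count or within the interval of the reported value; all 11 did so with the grid starting at base 500 and without chromosome 7. The others are given by alternative, as the number of members, median GC, masked share, shares marked at 4-cell, 8-cell, morula, in all 3 and in none, outside genes, at promoters and in stretches of 2 or more, where each moved. With at least 250 bp there were 12929 members, GC 46.5%, masked 62.8%, marks 83.7%, 78.6%, 90.6%, 67.9% and 2.99%, and stretches 36.2%. With at least 750 bp there were 2112 members, GC 48%, masked 66.5%, 4-cell 77.0%, 8-cell 68.4%, all 3 56.3% and promoters 0.379%. With peaks of −log10 q of 2 or more there were 8015 members, and this limit also removes PN5 peaks, with GC 47.9%, masked 70.4%, 8-cell 68.6%, morula 88.1%, outside genes 71.1% and stretches 38.2%. With lists cut to equal length GC was 47.8%, masked 70.0%, marks 77.2%, 67.3%, 80.7%, 55.6% and 8.45%, and stretches 32.4%. With PN5 under 500 bp there were 9548 members, masked 70.5%, marks 82.3%, 73.9%, 88.6%, 63.5% and 4.06%, outside genes 70.3% and stretches 27.04%. With 0 bp of PN5 also 1 kb on each side GC was 47.9%, 8-cell 70.1%, morula 85.8%, all 3 58.6% and none 5.79%. Under all 8 alternatives members were below the PN5-marked windows at 4-cell, 8-cell and morula, by 5.59 to 21.1 percentage points.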
